A study of Mus musculus with 21 samples.

Results

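The genes examined were 8 neighbours of Cstb on mouse chromosome 10: Rrp1, Agpat3, Trappc10, Pwp2, Icosl, Aire and Pfkl on one side and Pdxk on the other. They were taken by their place on the chromosome, and every probe set annotated to one of these symbols alone was used, whatever its signal. This gave 17 probe sets for 8 genes, of 34945 probe sets with 1 symbol for 18193 genes. Expression was measured on Affymetrix arrays of the mouse genome in Cstb-/- mice, which lack cystatin B, and in wild type littermates, all on the 129SvJ background. The mutant mice carried the germline allele Cstb tm1Rm, so the gene was missing in every cell and not only in the cerebellum. Whole cerebellum was taken at postnatal day 7 (P7, 4 Cstb-/- and 4 wild type arrays) and at P30 (3 and 3 arrays). Granule cells were cultured from the cerebella of pups at P5 and harvested after 2 days in vitro (3 Cstb-/- and 4 wild type arrays). Meninges had been removed before plating, and cytosine arabinofuranoside was added to all these cultures against glial proliferation. Nothing in the sources used here says whether a culture came from 1 pup or several, so p-values measure the spread between these arrays.

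Cystatin B blocks cysteine proteases of the cathepsin family, and its loss in humans causes a progressive myoclonus epilepsy. A targeted deletion can alter transcription of the genes beside it, an effect in cis, and a knockout phenotype may then not be owed to the deleted gene alone. The neighbours of Cstb belong to several unrelated pathways. Rrp1 and Pwp2 are nucleolar proteins that yeast needs for ribosomal RNA processing. Agpat3 makes phosphatidic acid from lysophosphatidic acid, and Trappc10 belongs to a complex that tethers transport vesicles. Pfkl is the liver type subunit of phosphofructokinase, the rate-limiting enzyme of glycolysis. Pdxk phosphorylates vitamin B6 to make pyridoxal phosphate, the cofactor of glutamate decarboxylase and so of GABA synthesis. Icosl is the ligand of the T cell receptor Icos, and Aire drives expression of tissue antigens in the thymic medulla.

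In the RefSeq gene annotation used here the protein-coding genes stood in the order Pfkl, Aire, Dnmt3l, Icosl, Gatd3a, Pwp2, Trappc10, Agpat3, Rrp1, Cstb and Pdxk. Rrp1 and Pdxk were therefore the genes next to Cstb on either side. Gatd3a and Dnmt3l, which lie among them, were counted with the other genes of the region. Aire overlapped Dnmt3l in this annotation, and Rrp1, Agpat3, Icosl and Pdxk overlapped a microRNA gene or a long noncoding RNA gene. Trappc10, Pwp2 and Pfkl overlapped no annotated gene.

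RefSeq promoters (250 bases before and 50 after the start of the gene) were found for 8 of 8 neighbours, and Cstb is only named here. The promoters of Rrp1 and Pdxk are shown because these genes border the deleted one. Capitals mark the GC box core GGGCGG and the cAMP response element core TGACG, read on both strands. The Rrp1 promoter lies on the minus strand of mouse assembly GRCm38.p6 at chr10:78412994-78413293, and the Pdxk promoter on the minus strand at chr10:78464899-78465198.
Rrp1: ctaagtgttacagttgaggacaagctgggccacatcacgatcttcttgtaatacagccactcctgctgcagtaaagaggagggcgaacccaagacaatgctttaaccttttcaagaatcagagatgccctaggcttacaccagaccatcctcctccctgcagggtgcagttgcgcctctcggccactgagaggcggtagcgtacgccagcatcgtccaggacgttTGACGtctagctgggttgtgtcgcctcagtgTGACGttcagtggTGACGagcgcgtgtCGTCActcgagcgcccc
Pdxk: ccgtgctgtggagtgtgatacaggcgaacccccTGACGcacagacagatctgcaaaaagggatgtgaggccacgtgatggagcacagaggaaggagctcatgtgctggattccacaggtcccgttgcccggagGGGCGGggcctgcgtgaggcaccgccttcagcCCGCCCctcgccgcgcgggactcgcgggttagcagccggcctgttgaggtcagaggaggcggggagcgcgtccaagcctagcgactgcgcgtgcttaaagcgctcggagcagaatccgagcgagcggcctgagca
The Rrp1 window held TGACG at 4 places and no GGGCGG, whereas the Pdxk window held TGACG at 1 place and GGGCGG at 2 places. TGACG was found in 3 of 8 neighbours and in 20.8% of 32851 mouse promoters of the same length. GGGCGG was found in 5 of 8 neighbours and in 35.7% of all promoters, CCAAT in 2 of 8 and 37.4%, and TATAAA in 1 of 8 and 13.6%. These matches are letters in a window and no binding was measured.

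The values were log2 signals from which the median of each probe set within its experiment had been subtracted. A value of 0.30 therefore means a signal 0.30 log2 units above that probe set's median, and neither the level of a gene nor its presence in the tissue could be read. In the granule cell cultures the median of 7 arrays is the value of 1 array, and 49.9% of probe sets held exactly 0 on 2 or more arrays there, against 0.8% at P7 and at P30. Among the neighbours of Cstb, 8 of 17 probe sets had such ties in the cultures and none in the cerebella, and the part of these ties in the results was not tested.

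Labels and spread of some arrays also stood apart. Xist and Eif2s3y, which separate the sexes, followed the sex labels at P7, where 3 of 4 Cstb-/- and 1 of 4 wild type arrays were labelled male. At P30, 1 Cstb-/- array was labelled female, but Xist was -0.03 there and between -0.08 and 0.15 on the other 5 arrays. The methods describe the P30 mice on arrays as males only. In the cultures, Cstb-/- array 1 was labelled male with Eif2s3y at -2.33, and Cstb-/- array 2 was labelled female with Eif2s3y at 1.78, so both went against their labels. Wild type culture 7, labelled male, had Xist at -0.23 and Eif2s3y at 0.92, and wild type culture 8, labelled female, had Xist at 0.32 and Eif2s3y at 0.00. Neither lay with the clearly male arrays (Xist at -6.89 and -6.78) or, by Eif2s3y, with the clearly female ones (-2.58 and -2.46), so labelled sex is a doubtful covariate in the cultures. The widest arrays at P7 were Cstb-/- array 5 and wild type array 3, with SDs over all probe sets of 0.23 and 0.225. Cell type markers moved with genotype as well. At P7, 9 of 10 choroid plexus markers had an unadjusted p under 0.05 and their median difference was -1.36, with array means between -1.90 and -0.09 in Cstb-/- cerebella and between 0.01 and 0.57 in wild type cerebella. Oligodendrocyte markers lay the other way at P7, with 9 of 9 above 0, 8 of 9 at an unadjusted p under 0.05 and a median of 0.55 (array means 0.18 to 0.67 in Cstb-/- and -0.51 to -0.10 in wild type cerebella). Granule neuron markers also lay above 0 there in 7 of 8 cases, with a median of 0.32 (array means 0.06 to 0.29 in Cstb-/- and -0.25 to -0.10 in wild type cerebella). None of these P7 markers was called. At P30, 6 of 10 microglial markers were called higher (array means 0.41 to 0.60 in Cstb-/- and -0.66 to -0.39 in wild type cerebella). In the Cstb-/- cultures 8 of 9 mitosis genes and 6 of 10 meningeal fibroblast and mural cell markers were called higher. Their part in the values of the flanking genes was not tested. In bulk RNA, fewer cells of a type and less RNA per cell cannot be told apart.

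Cstb itself was low in every Cstb-/- array. Its probe set 1422507_at read -1.15, -1.09, -1.05 and -1.29 in P7 Cstb-/- cerebella, against 1.23, 1.05, 1.28 and 1.08 in wild type cerebella. The 2 Cstb probe sets differed by -3.10 and -2.31 log2 units at P7, by -2.70 and -2.77 at P30 and by -2.08 and -1.86 in the granule cells (limma, adjusted p between 4.71e-07 and 4.33e-05). Cstb-/- and wild type arrays did not overlap in any experiment.

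None of the 17 probe sets of the flanking genes was called changed in any of the 3 experiments in the main comparison, which did not include sex. At P7, 3 of 4 Cstb-/- and 1 of 4 wild type arrays were labelled male. With labelled sex as a covariate, 1 of the 17 was called at P7 (Pdxk 1427930_at, 0.68, limma adjusted p = 0.0437). Over all probe sets that covariate took the calls at P7 from 3 to 1108. A call required a fold of 1.3 or more, which is a log2 difference of 0.379. It also required a limma p, adjusted over all 45037 probe sets, below 0.05 for cerebellum and below 0.01 for the cultures. Over all probe sets 0.00666% were called at P7, 0.144% at P30 and 2.54% in the granule cells. A p above the threshold does not show that values were equal, so the sizes and their intervals are given. Differences between Cstb-/- and wild type lay between -0.05 and 0.50 at P7, between -0.25 and 0.19 at P30 and between -0.36 and 0.47 in the granule cells. For 17 of 17 probe sets in each experiment the 95% interval stayed within a log2 difference of 1 in either direction, and the farthest bound was 0.85, for Pdxk at P7. The interval stayed within the 1.3-fold limits for 11 of 17 probe sets at P7, 15 at P30 and 7 in the granule cells.

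**Figure D1:**
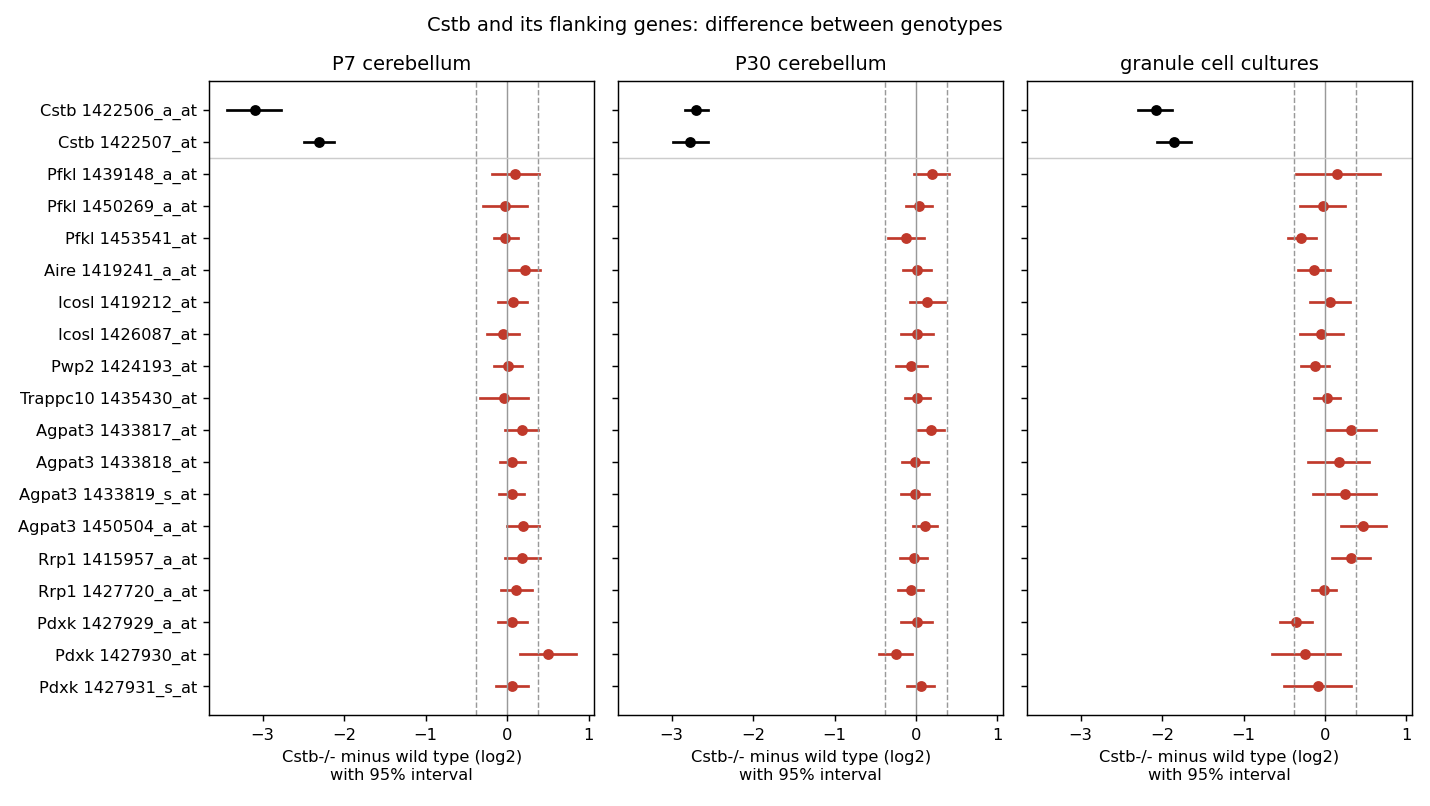
Differences between Cstb-/- and wild type arrays (x axis, log2; point: limma estimate, line: 95% interval) for the 2 probe sets of Cstb (black) and 17 of the flanking genes (red) in 3 experiments, with dashed lines at a fold of 1.3. Cstb lies between -3.10 and -1.86, whereas the flanking genes lie between -0.36 and 0.50.

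Less strict counts were read against the same counts over all probe sets. An unadjusted limma p under 0.05 was reached by 2 of 17 probe sets at P7, against 9.45% of all, by 2 at P30, against 7.72%, and by 5 in the granule cells, against 31.6%. A fold of 1.3 or more was reached by 1 of 17 at P7 (1.63% of all), by none at P30 (1.39%) and by 1 in the granule cells (18.4%). Cstb-/- and wild type arrays were apart for 0 of 17 at P7 (5.65% of all), for 4 at P30 (12.5%) and for 4 in the granule cells (22.8%). No count of the flanking genes in the cultures was far above that of all probe sets. The median absolute difference of the 17 probe sets was 0.06 at P7, 0.06 at P30 and 0.15 in the granule cells, and over all probe sets it was 0.08, 0.07 and 0.17. At P7, 13 of 17 probe sets lay above 0, against 53.7% of all, with a median of 0.06, against 0.01 over all.

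**Figure D2:**
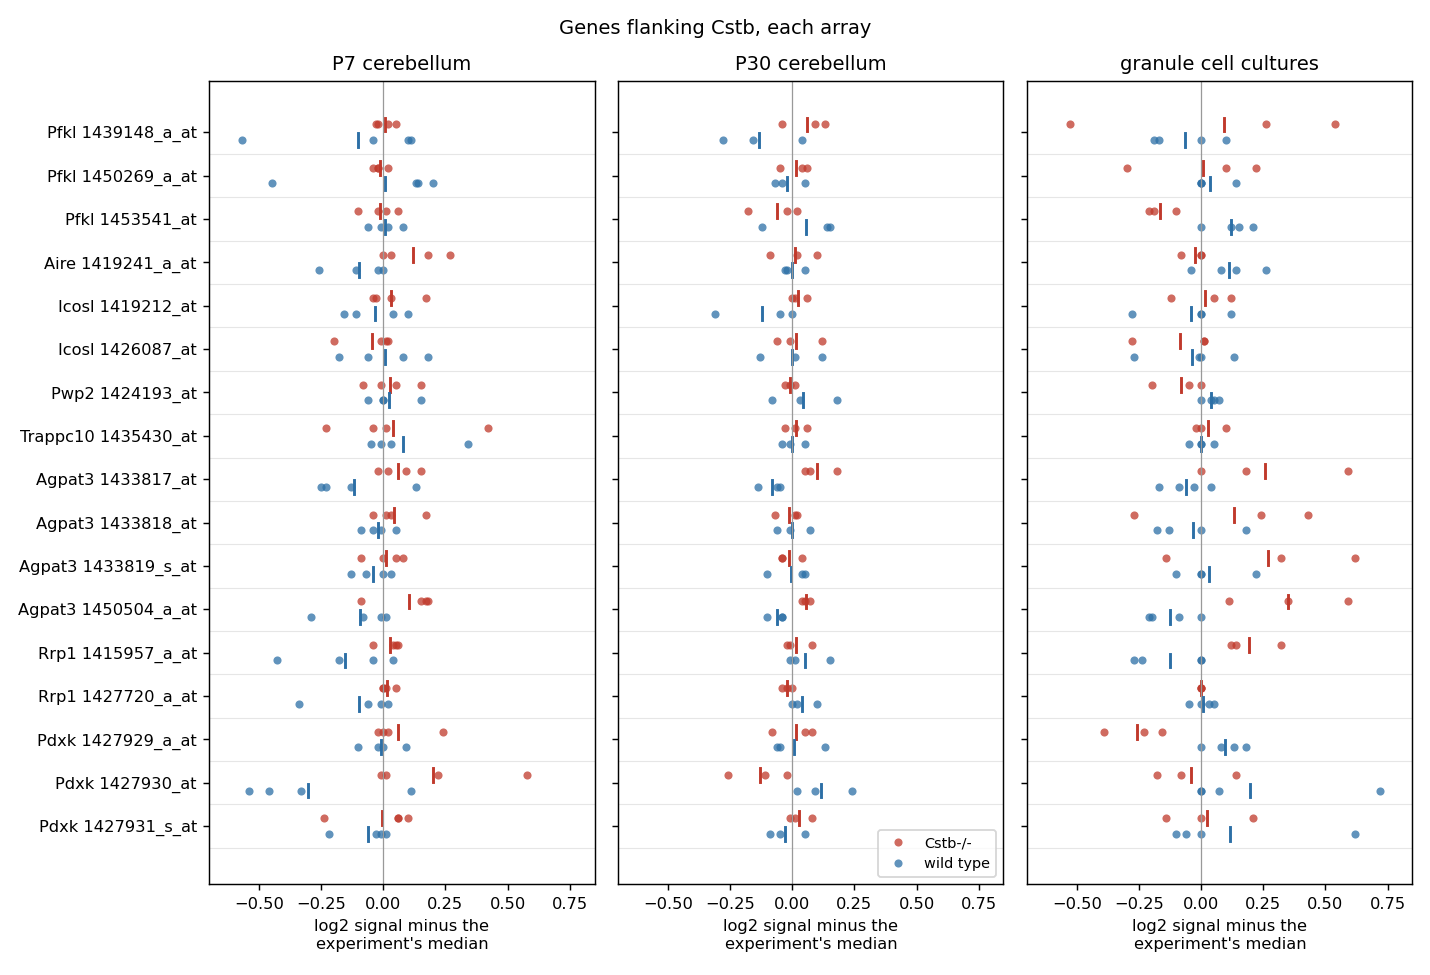
Signal of each array (x axis, log2 after subtraction of the probe set's median in that experiment) for the 17 probe sets of the flanking genes, with Cstb-/- arrays in red above wild type arrays in blue and a bar at each group's mean. The genotypes are apart for 0 probe sets at P7, 4 at P30 and 4 in the granule cells.

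Pdxk, the gene next to Cstb on the side opposite to Rrp1, gave the highest difference at P7, but in 1 of its 3 probe sets and in opposite directions at the 2 ages. Probe set 1427930_at read 0.01, -0.01, 0.22 and 0.58 in P7 Cstb-/- cerebella, against -0.33, -0.54, -0.46 and 0.11 in wild type cerebella. Wild type arrays 1, 2 and 3 were low and wild type array 4 fell within the Cstb-/- range. The difference was 0.50 (SE 0.16, 95% interval 0.16 to 0.85), a fold of 1.42, with an adjusted p of 0.414 in limma. Without Cstb-/- array 5, the highest, it was 0.38, and without that array and wild type array 3 it was 0.33. With labelled sex as a covariate the difference was 0.68 and the adjusted p 0.0437, which made it a call. Among arrays labelled male the Cstb-/- values were 0.01, -0.01 and 0.22 and the wild type value -0.46, and among those labelled female the Cstb-/- value was 0.58 and the wild type values were -0.33, -0.54 and 0.11. That covariate also moved the number of calls over all probe sets at P7 to 1108.

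At P30 the same Pdxk probe set lay the other way. It read -0.26, -0.11 and -0.02 in Cstb-/- cerebella and 0.24, 0.09 and 0.02 in wild type cerebella, with no overlap. The difference was -0.25 (SE 0.09, limma adjusted p = 0.568). It read 0.14, -0.08 and -0.18 in Cstb-/- cultures and 0.00, 0.72, 0.07 and 0.00 in wild type cultures, where array 5 stood alone at the top. The difference there was -0.24 (SE 0.18, limma adjusted p = 0.389), and -0.06 without wild type array 5.

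The other Pdxk probe sets did not share the pattern of 1427930_at in the cerebella. Probe set 1427929_a_at, which by its suffix matches several transcripts of a gene, differed by 0.06 at P7 and 0.01 at P30. It read -0.23, -0.16 and -0.39 in Cstb-/- cultures and 0.18, 0.13, 0.00 and 0.08 in wild type cultures. All Cstb-/- cultures were lower than all wild type cultures, by -0.36 (SE 0.08), a fold of 0.781 that missed the 1.3-fold limit (limma adjusted p = 0.0356). Probe set 1427931_s_at, whose suffix marks probes shared with other transcripts, differed by 0.06, 0.06 and -0.09 in the 3 experiments. Across arrays its correlation with 1427930_at was 0.53 at P7 (8 arrays), -0.55 at P30 (6 arrays) and 0.93 in the granule cells (7 arrays). In the cultures wild type array 5 was high in both. There 1427929_a_at correlated with 1427930_at at 0.49 and with 1427931_s_at at 0.19. Averaged over its probe sets, Pdxk differed by 0.21 at P7, -0.06 at P30 and -0.23 in the granule cells, with limma adjusted p of 0.424, 0.818 and 0.218.

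Of the vitamin B6 genes (Pdxk, the phosphatase Pdxp and others that make, use or carry the cofactor or its forms), none of 7 measured was called in any experiment. Their median difference was 0.03 at P7, 0.01 at P30 and -0.14 in the granule cells, beside 0.015, 0.002 and 0.001 over 18193 genes. Pdxp, which removes the phosphate that Pdxk adds, differed by 0.26 at P7 (limma adjusted p = 0.43). Psat1, an enzyme of serine synthesis that uses the cofactor, differed by 0.95 in the granule cells (limma adjusted p = 0.0249), which missed the threshold used there.

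Agpat3, the second gene from Cstb, had the highest difference of the flanking genes in the granule cells. Probe set 1450504_a_at read 0.59, 0.11 and 0.35 in Cstb-/- cultures and 0.00, -0.20, -0.09 and -0.21 in wild type cultures. All 3 Cstb-/- cultures were higher than all 4 wild type cultures, with Cstb-/- array 2 closest to them. The difference was 0.47 (SE 0.12, 95% interval 0.20 to 0.75), a fold of 1.39, and its limma adjusted p of 0.0415 missed the threshold of 0.01. Of all probe sets 10.0% had an adjusted p under 0.05 in the granule cells, and 2 of the 17 did. Without Cstb-/- array 2 the difference was 0.60 and the adjusted p 0.00979, and it was then called. Over all probe sets 2685 were called without that array, against 1144 with all arrays. With each of the other 6 arrays left out in turn it lay between 0.36 and 0.52 and was not called.

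The other Agpat3 probe sets lay on the same side in the cultures with wider intervals. Probe set 1433817_at read 0.59, 0.00 and 0.18 in Cstb-/- cultures and 0.04, -0.17, -0.03 and -0.09 in wild type cultures, and the genotypes overlapped through Cstb-/- array 2. Its difference was 0.32 (SE 0.14), and 1433818_at and 1433819_s_at differed by 0.17 and 0.24, with limma adjusted p between 0.153 and 0.509 over these 3. Single Cstb-/- cultures moved them widely. Without array 1 the differences were 0.15, 0.02 and 0.06, and without array 2 they were 0.45, 0.37 and 0.44, for 1433817_at, 1433818_at and 1433819_s_at in that order. Array 2 was the lowest Cstb-/- culture in all 4 Agpat3 probe sets and array 1 the highest. These arrays are the pair whose sex genes went against their labels, and the part of sex in Agpat3 was not tested beyond the labelled covariate, with which 1450504_a_at differed by 0.51 (adjusted p = 0.0154).

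In the cerebella Agpat3 differences were smaller. At P30, 1433817_at read 0.18, 0.07 and 0.05 in Cstb-/- cerebella and -0.05, -0.06 and -0.14 in wild type cerebella, without overlap, and 1450504_a_at read 0.04, 0.07 and 0.05 in Cstb-/- and -0.04, -0.10 and -0.04 in wild type cerebella, also without overlap. The differences were 0.18 and 0.11 (limma adjusted p of 0.615 and 0.738). At P7 the same 2 probe sets differed by 0.18 and 0.20 with overlapping arrays, and 1433818_at and 1433819_s_at by 0.06 each at P7 and by -0.01 each at P30. As a mean over 4 probe sets, Agpat3 differed by 0.12 at P7, 0.07 at P30 and 0.30 in the granule cells (SE 0.06, 0.06 and 0.14), none with a limma adjusted p under 0.15.

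The 16 acylglycerophosphate acyltransferases and relatives measured, among them Agpat3, had no call in any experiment, with medians of 0.01, 0.01 and 0.03. Of these, 7 of 16 had in the granule cells an unadjusted limma p under 0.05, against 31.6% of all probe sets. Lpcat4 and Lpcat1, which reacylate lysophospholipids, differed by -0.46 and -0.54, whereas Lpcat3 differed by 0.25 (limma adjusted p between 0.0619 and 0.133).

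Trappc10, measured by a single probe set, had no difference beyond the spread of its arrays. It read 0.42, 0.01, -0.04 and -0.23 in P7 Cstb-/- cerebella and -0.01, -0.05, 0.34 and 0.03 in wild type cerebella, where 1 array of each genotype was high. Its differences were -0.04 at P7 (95% interval -0.33 to 0.26), 0.01 at P30 (-0.14 to 0.17) and 0.03 in the granule cells (-0.13 to 0.19). None of 14 subunits of the TRAPP complexes was called. Of these, 11 of 14 in the granule cells lay above 0, against 50.1% of all genes, with a median of 0.16, and Trappc2 and Trappc13 differed by 0.32 and 0.59 (limma adjusted p of 0.0412 and 0.0883).

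Rrp1, the gene next to Cstb on the side opposite to Pdxk, was measured by 2 probe sets that parted in the cultures. Probe set 1415957_a_at read 0.14, 0.12 and 0.32 in Cstb-/- cultures and 0.00, -0.27, 0.00 and -0.24 in wild type cultures. All Cstb-/- cultures were higher, by 0.32 (SE 0.10, 95% interval 0.09 to 0.55, limma adjusted p = 0.0772). Probe set 1427720_a_at read 0.00, 0.00 and 0.00 in Cstb-/- cultures and 0.00, 0.05, 0.03 and -0.05 in wild type cultures, a difference of -0.01 (95% interval -0.16 to 0.14) in which 4 of 7 values were tied at 0. The probe sets followed each other across arrays at P7 (r = 0.94 over 8 arrays) and at P30 (0.66 over 6), but not in the cultures (-0.04 over 7).

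At P7 Rrp1 read 0.04, 0.06, -0.04 and 0.05 in Cstb-/- cerebella and 0.04, -0.04, -0.43 and -0.18 in wild type cerebella by 1415957_a_at. Wild type array 3 was the lowest, and without it and Cstb-/- array 5 the difference of 0.18 became 0.08. At P30 both probe sets were close to 0, with differences of -0.03 and -0.06 (limma adjusted p of 0.947 and 0.858), although the genotypes met without overlap for 1427720_a_at.

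Pwp2 gave differences of 0.01 at P7, -0.06 at P30 and -0.12 in the granule cells. In the cultures it read -0.20, -0.05 and 0.00 in Cstb-/- and 0.05, 0.04, 0.00 and 0.07 in wild type, so that the genotypes met at 0.00. Its 95% intervals stayed within -0.29 and 0.18 over all 3 experiments. The genes that act with Rrp1 and Pwp2 were set beside them. Of 20 genes of the UTP-B and small subunit processome, Utp3 was called higher in the granule cells (0.55, SE 0.07, limma adjusted p = 0.00441) and none was called in the cerebella. The median of these 20 was -0.04 at P7, 0.00 at P30 and 0.19 in the granule cells. Of 16 genes of large subunit ribosomal RNA processing none was called, and the medians were -0.14, 0.03 and 0.31. In culture 15 of these 16 lay above 0, against 50.1% of all genes, with Ebna1bp2 at 0.63 and Pes1 at 0.48 (limma adjusted p of 0.0189 and 0.0317). The value of Rrp1 by 1415957_a_at in the cultures, 0.32, was near that median, but by 1427720_a_at it was -0.01 and as a mean over its probe sets 0.16. The value of Pwp2, -0.12, lay on the other side of 0. In the same cultures 8 of 9 mitosis genes were called higher, with array means of 1.27 to 1.37 in Cstb-/- and -0.36 to -0.07 in wild type cultures, and their part in these medians was not tested.

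Pfkl, the farthest of the flanking genes, was measured by 3 probe sets that disagreed. Probe set 1453541_at read -0.21, -0.10 and -0.19 in Cstb-/- cultures and 0.00, 0.15, 0.12 and 0.21 in wild type cultures. All Cstb-/- cultures were lower, by -0.29 (SE 0.08, limma adjusted p = 0.0526). The other 2 probe sets differed by 0.15 and -0.03, and 1439148_a_at ranged from -0.53 to 0.54 among the 3 Cstb-/- cultures alone. These 2 correlated at 0.92 across the 7 arrays, whereas 1453541_at correlated with them at -0.26 and 0.02.

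At P7 the same 2 Pfkl probe sets were both lowest in wild type array 3 and correlated at 0.92 over 8 arrays. Probe set 1439148_a_at read 0.05, 0.02, -0.02 and -0.03 in Cstb-/- cerebella and -0.04, 0.10, -0.57 and 0.11 in wild type cerebella, with wild type array 3 far below. The difference was 0.10 with all arrays and -0.04 without that array and Cstb-/- array 5. For 1450269_a_at, at -0.45 in wild type array 3, it was -0.02 with all arrays and -0.17 without these 2. At P30 the 3 probe sets differed by 0.19, 0.04 and -0.12 (limma adjusted p between 0.682 and 0.926). Of 17 measured phosphofructokinase and glycolysis genes none was called in any experiment. At P7, 16 of 17 lay above 0, against 55.0% of all genes, with a median of 0.11, and the neuronal enolase Eno2 and the platelet type phosphofructokinase Pfkp differed by 0.44 and 0.27 (limma adjusted p of 0.422 and 0.44).

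Icosl and Aire are the genes with immune functions. Icosl differed by 0.07 and -0.05 at P7, by 0.14 and 0.01 at P30 and by 0.06 and -0.05 in the granule cells, and its arrays overlapped between genotypes each time. Its 95% intervals lay between -0.31 and 0.35 throughout. No T cell costimulation gene of 12 was called, and their medians were 0.06, 0.01 and -0.10. Cd274, a checkpoint ligand, differed by -0.32 in the granule cells (limma adjusted p = 0.0327).

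Aire read 0.03, 0.00, 0.18 and 0.27 in P7 Cstb-/- cerebella and -0.02, 0.00, -0.26 and -0.11 in wild type cerebella. The genotypes met at 0.00, and the outermost values belonged to Cstb-/- array 5 and wild type array 3. The difference was 0.22 (SE 0.09, limma adjusted p = 0.498), and 0.11 without these 2 arrays. Aire also read 0.00, 0.00 and -0.08 in Cstb-/- cultures and -0.04, 0.08, 0.26 and 0.14 in wild type cultures, a difference of -0.14 (SE 0.09, limma adjusted p = 0.297), and at P30 it differed by 0.01. Of 9 measured genes of Aire's setting in the thymus none was called, with medians of 0.04, 0.01 and 0.03.

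Whether the difference between genotypes itself differed between experiments was tested in 1 limma fit over all 6 groups, which share 1 estimate of the spread per probe set. Array SDs were 0.24 to 0.34 in Cstb-/- and 0.14 to 0.25 in wild type cultures, against 0.14 to 0.16 and 0.12 to 0.15 at P30. That fit called 5725 probe sets in the granule cells, where the separate fit called 1144. The part of the shared spread in these contrasts was not tested beyond a fit with array weights. Between P30 and P7 no flanking gene differed at an adjusted p under 0.05, against 0.124% of all probe sets, and 1 probe set had an unadjusted p under 0.05 (Pdxk 1427930_at, -0.76, SE 0.24, adjusted p = 0.412). Between the granule cells and P7, 3 of 17 differed: Pdxk 1427930_at by -0.74 (SE 0.23, adjusted p = 0.0291), Pdxk 1427929_a_at by -0.42 (SE 0.11, adjusted p = 0.0129) and Aire by -0.35 (SE 0.12, adjusted p = 0.0382). Of all probe sets 20.3% differed in that contrast, so the share of the flanking genes was close to it. Between the granule cells and P30 none of 17 differed, against 5.1% of all, and 3 had an unadjusted p under 0.05. These were Rrp1 1415957_a_at (0.35), Agpat3 1450504_a_at (0.36) and Pdxk 1427929_a_at (-0.36), with adjusted p of 0.168, 0.158 and 0.0907. The share of all probe sets at an unadjusted p under 0.05 was not counted in these contrasts, so the unadjusted counts cannot be read as a result about these genes. Both contrasts of the granule cells share the same culture arrays. Cultures and cerebella were also normalized apart, so tissue and normalization cannot be told apart there.

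**Figure D3:**
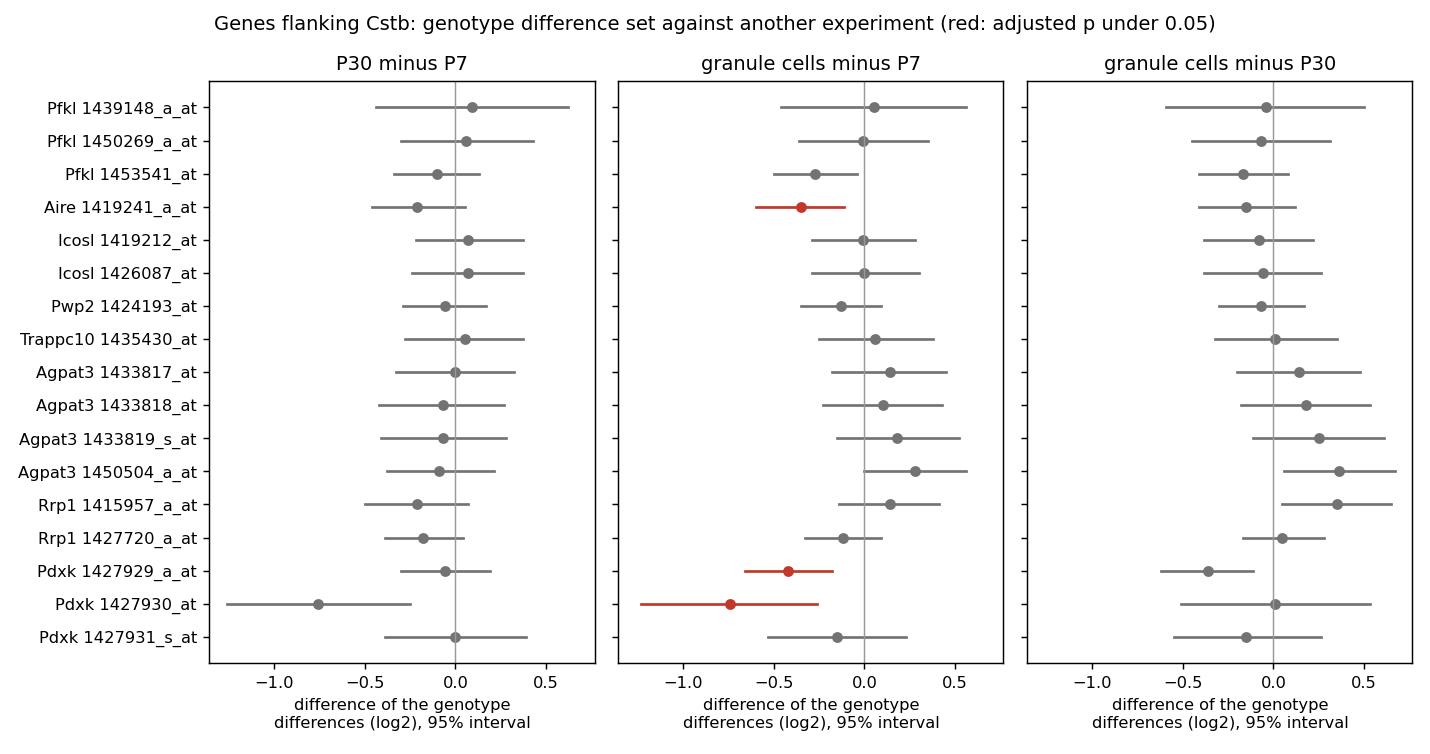
Difference of the genotype differences between pairs of experiments (x axis, log2, with 95% interval) for the 17 probe sets of the flanking genes. The 3 red probe sets, Aire (-0.35) and Pdxk (-0.42 and -0.74), had an adjusted p under 0.05, all of them between granule cells and P7.

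These 3 differences rested on single arrays to different degrees. Leaving out any of 9 arrays of 21 ended the call for Aire, with adjusted p between 0.0515 and 0.0954: P7 Cstb-/- arrays 3 and 5, P7 wild type arrays 3 and 4, Cstb-/- cultures 1 and 3 and wild type cultures 5, 7 and 8. For Pdxk 1427930_at it ended without P7 Cstb-/- array 5, P7 wild type array 2 or 3, Cstb-/- culture 3 or wild type culture 5 (adjusted p between 0.0538 and 0.0818), and also with array weights (-0.59, adjusted p = 0.0556). For Pdxk 1427929_a_at it ended without Cstb-/- culture 3 alone (-0.35, adjusted p = 0.0515).

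The wider region was read to see how far from Cstb the nearest call lay. Beside the 8 genes, 42 other protein-coding genes with their own probe set were taken, so that 25 measured genes stood on either side of Cstb. Of their 71 probe sets none was called at P7, 1 at P30 and 4 in the granule cells, against 0.00666%, 0.144% and 2.54% of all probe sets. No call lay closer to Cstb than 17 measured genes, but a missing call does not show equal values. Of these 71 probe sets 0 at P7, 1 at P30 and 18 in the granule cells reached a fold of 1.3. Over all probe sets the shares were 1.63%, 1.39% and 18.4%. In the granule cells 7 of the 71 had a limma adjusted p under 0.05, against 10.0% of all, and the 71 differences lay between -0.93 and 1.00. The lowest, Casp14 1443787_x_at, 4 measured genes from Cstb, differed by -0.93 (SE 0.26, limma adjusted p = 0.0612) and 1418748_at of that gene by -0.36. Itgb2, the integrin chain shared by leukocytes and microglia, was 18 measured genes from Cstb on the side of Rrp1. It read 0.73, 0.31 and 0.47 in P30 Cstb-/- cerebella and -0.64, -0.31 and -0.60 in wild type cerebella, and rose by 1.02 (SE 0.12, limma adjusted p = 0.0198). At P7 and in the granule cells it differed by 0.07 and 0.04. At P30 6 of 10 microglial markers were also called higher, among them Tyrobp and C1qa, which differed by 2.20 and 1.83. Their part in the value of Itgb2 was not tested. The call was lost without Cstb-/- array 1 or 3 or wild type array 1 or 3 (limma adjusted p between 0.0791 and 0.121). Labelled sex as a covariate gave the same result as leaving out Cstb-/- array 1, the only P30 array labelled female (0.90, limma adjusted p = 0.087).

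In the granule cells Col18a1, which encodes a basement membrane collagen, and Pttg1ip, a protein that binds securin, were called on the side of Rrp1, and the splicing regulator Ptbp1 as the farthest gene on the side of Pdxk. Col18a1 1418237_s_at read 0.98, 0.83 and 0.70 in Cstb-/- cultures and -0.33, -0.14, -0.18 and 0.00 in wild type cultures, a rise of 1.00 (SE 0.10, limma adjusted p = 0.00134), and its second probe set rose by 0.66. Pttg1ip rose by 0.60 and Ptbp1 by 0.63 (limma adjusted p of 0.00809 and 0.00638), each in 1 of 3 probe sets. The other probe sets differed by -0.07 and 0.42 for Pttg1ip and by 0.04 and -0.52 for Ptbp1, and none of them was called. The calls of Pttg1ip and Ptbp1 were lost without Cstb-/- culture 1 or 3 or wild type culture 5, 7 or 8 (adjusted p of 0.0262 to 0.0387 and 0.0157 to 0.0296), and that of Pttg1ip also with labelled sex as a covariate (0.61, adjusted p = 0.0108). That of Col18a1 1426955_at was lost without any of these or wild type culture 4 (0.0112 to 0.0209), whereas 1418237_s_at kept its call each time. In the same cultures 6 of 10 meningeal fibroblast and mural cell markers were called higher (array means 1.59 to 1.72 in Cstb-/- and -0.19 to -0.05 in wild type). So were 8 of 9 mitosis genes (array means 1.27 to 1.37 and -0.36 to -0.07). The part of either in the values of Col18a1, Pttg1ip and Ptbp1 was not tested. In each case at least 16 measured genes without a call lay between the called gene and Cstb. These genes were not shown to be unchanged, and a relation of differences to gene order was not tested.

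**Figure D4:**
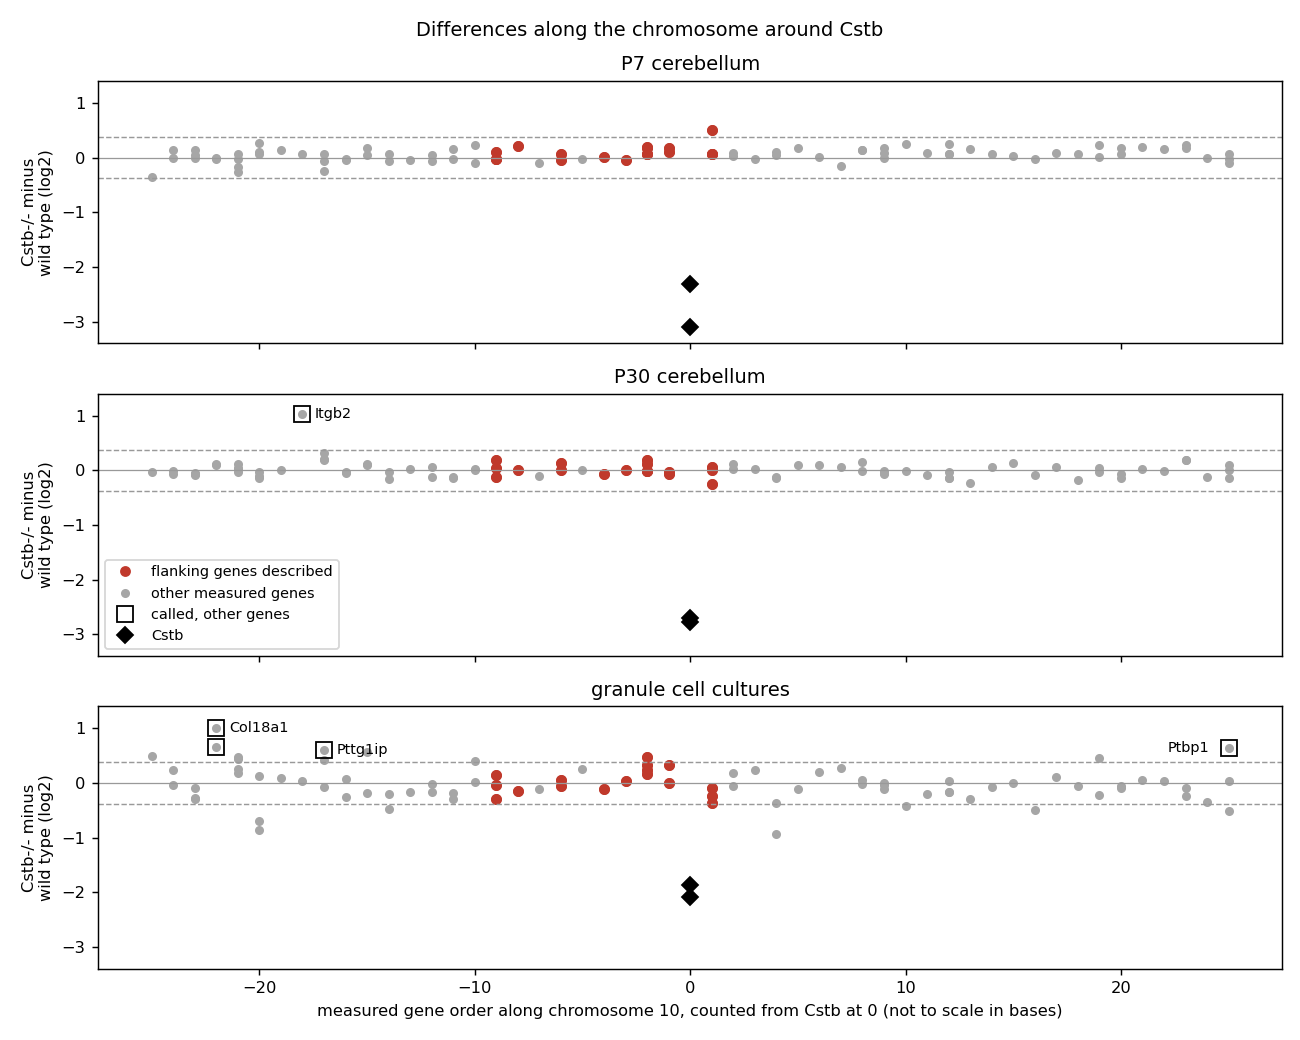
Difference between Cstb-/- and wild type (y axis, log2) of each probe set against the order of measured genes on chromosome 10, with Cstb at 0, Pdxk at 1 and Rrp1 at -1. Dashed lines mark a fold of 1.3, and squares mark called genes other than Cstb: Itgb2 (1.02) at P30, and Col18a1 (1.00), Pttg1ip (0.60) and Ptbp1 (0.63) in the granule cells.

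Genes of the block that is shared with human chromosome 21 were counted as a further frame. Of 35 measured, among them the deleted gene Cstb, 1 was called at P7 (Cstb) and 2 at P30 (Cstb and Itgb2). In the granule cells 3 were called (Cstb, Col18a1 and Pttg1ip). Over all probe sets 0.00666%, 0.144% and 2.54% were called. Each gene was read by 1 probe set, and the other Pttg1ip probe sets were not called. The medians were 0.04, 0.01 and 0.04.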

How the data were processed

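Signals had been background-adjusted, quantile-normalized and summarized with RMA by the authors in GeneSpring GX (version not given in the sources used here), and the median of each probe set was then subtracted. The deposited values are these log2 signals, centred apart in the P7, P30 and granule cell experiments, and they keep no signal levels. The table held 45101 probe sets, 64 of them controls, which were not used. In the platform annotation 34945 of the others had 1 symbol, 932 several and 9160 none. Cstb-/- was compared with wild type in each experiment with limma 3.58.1 in R 4.3.3 (lmFit, eBayes, Benjamini-Hochberg over 45037 probe sets, 2-sided), at the fold and p thresholds of the methods. The script was tested on simulated data. Summaries used Python 3.11.15, numpy 2.4.6 and pandas 2.3.3. The flanking genes and gene lists were chosen with earlier results of these data known. All probe sets of the flanking genes, Cstb, any called gene of the region and at most 4 genes of a list with the largest limma statistic were named, and correlated probe sets were to be named only for flanking genes that were called. Casp14 of the region was named without a call. Lists used 1 probe set a gene, that of the lowest ID. Of the cultures, 3 Cstb-/- and 4 wild type arrays were analysed here, fewer than the methods describe. Their filter on low expression could not be applied to centred values. The number of arrays limits the precision.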

Additional observations from a re-analysis of the deposited data

Results flagged for a closer look

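In groups of 4 arrays, 1 array far from the others was seen 9 times among 51 groups of the flanking genes. Chance gives about 1 in 20 for independent groups. These groups shared arrays and genes and some held ties, so the count cannot be set against chance. A P7 Cstb-/- array was far below the others for Rrp1 1415957_a_at (array 3, -0.04 against 0.04 to 0.06), Agpat3 1450504_a_at (array 5, -0.09 against 0.15 to 0.18), Icosl 1426087_at (array 1, -0.20 against -0.01 to 0.02) and Pdxk 1427931_s_at (array 1, -0.24 against 0.06 to 0.10). P7 wild type array 3 was far below for Pfkl 1450269_a_at (-0.45 against 0.13 to 0.20) and Pdxk 1427931_s_at (-0.22 against -0.03 to 0.01). Wild type culture 5 was far above for Pdxk 1427930_at (0.72 against 0.00 to 0.07) and Pdxk 1427931_s_at (0.62 against -0.10 to 0.00). Wild type culture 4 was at 0.14 for Pfkl 1450269_a_at, where the other 3 were tied at 0.00.

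The difference between Cstb-/- and wild type itself differed between the granule cells and P7 (limma, adjusted p under 0.05) for Aire (-0.35), Pdxk 1427929_a_at (-0.42) and Pdxk 1427930_at (-0.74).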

How the results depend on the processing

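No probe set of the flanking genes was called at P30 under any alternative, and 1 was called at P7 with labelled sex as a covariate (Pdxk 1427930_at). Over all probe sets 1108 were called at P7 with that covariate. In the granule cells 1 was called, Agpat3 1450504_a_at, with an adjusted p threshold of 0.05, in 1 fit over all groups, and among the fits with 1 array left out, in which between 0 and 1 were called. Of all 45037 probe sets, 4075 were called at that threshold, 5725 in 1 fit and 2685 without Cstb-/- culture 2, the fit that called Agpat3. The contrast of granule cells with P7 gave between 0 and 5 probe sets with 1 array left out (0 without Cstb-/- culture 3, 5 without Cstb-/- culture 2, and 1 without P7 Cstb-/- array 5, P7 wild type array 3 or wild type culture 5). The counts over all 45037 probe sets moved too, from 9145 with all arrays to 6019 without Cstb-/- culture 3 and 12568 without Cstb-/- culture 2. They were 7048, 8301 and 6932 without the last 3 arrays, in that order. The contrast of granule cells with P30 gave 3 with array weights and between 0 and 3 with 1 array left out, 3 being without Cstb-/- culture 2. Over all 45037 probe sets that contrast gave 6239 with array weights and 5816 without Cstb-/- culture 2, against 2295 in the main fit. With the replicate number as a block (replicate block) 0 were called at P7 and 0 at P30, and Itgb2 lost its call (adjusted p = 0.0776). Labelled sex as a covariate ended the calls of Itgb2 at P30 (0.087) and Pttg1ip in the cultures (0.0108). At P30 that covariate amounts to leaving out Cstb-/- array 1. Array weights ended the call of Pdxk 1427930_at between granule cells and P7 (0.0556). Arrays of the same number did not deviate together (correlations 0.006, 0.046 and 0.168 at P7 and -0.035, -0.178 and -0.034 at P30), and the culture arrays shared no number. Of the differences of single probe sets, 322 of 323 alternatives at P7, 272 of 272 at P30 and 269 of 272 in the granule cells changed no call. The sign turned in 21, 19 and 11 of them, for differences of at most 0.15. Some alternatives could not change the outcome. Those that altered only the threshold, the test, the variance or the probe sets tested kept the same difference and could not turn a sign. With no adjusted p under the threshold, dropping the fold limit or a stricter p could not add a call. The t-test corrected over probe sets past the fold gave no adjusted p below that fold. Leaving out P7 Cstb-/- array 5 and wild type array 3 together was added after seeing the data, and 0 were called. Over all probe sets the number of calls ranged from 1 to 1108 at P7 (main 3), from 1 to 226 at P30 (main 65) and from 32 to 5725 in the granule cells (main 1144). With the methods' t-test corrected over all probe sets, Cstb 1422506_a_at at P7 and Cstb 1422507_at at P30 had adjusted p of 0.0533 and 0.0969. Under that test, corrected the same way, no called gene of the wider region kept its call (adjusted p between 0.0305 and 0.602), and corrected over the probe sets past the fold, Pttg1ip (0.0116) and Ptbp1 (0.0105) lost theirs. With 1 culture left out, Pttg1ip, Ptbp1 and Col18a1 1426955_at lost their calls in 5, 5 and 6 of 7 cases (adjusted p of 0.0262 to 0.0387, 0.0157 to 0.0296 and 0.0112 to 0.0209). Signal over background could not be read from centred values.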
